A study of Mus musculus with 9 samples.

Results

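Mature Neutrophils I was 1 of 17 cell populations that the study distinguished by single-cell RNA-Seq of mouse bone marrow. Its members here were the 15 genes that the authors' deposited marker table lists under this name, out of 293 entries and 234 different genes for all populations. The population was compared with the table's 4 other neutrophil populations, Mature Neutrophils II and Immature Neutrophils I, II and III. The marrow came from 9 C57BL/KaLwRij mice aged 12 weeks by label, a strain in which the mouse myeloma line 5TGM1 grows. The labels assign 2 samples to Control, 3 to PBS and 3 to CST6, and 1 sample without an agent label was left unassigned. Control mice had received no myeloma cells, while PBS and CST6 mice had been given 5TGM1 cells carrying GFP through the tail vein and then either vehicle or recombinant mouse Cst6, a cystatin that inhibits lysosomal cysteine proteases. The paper itself reports 3 mice in each of these 3 groups. Single labels are uncertain, since 1 PBS sample has a title of the control series. The study isolated mononuclear cells on Ficoll-Paque and depleted GFP-positive myeloma cells by sorting, so all shares of cells given here are shares of the cells left after these steps. The table pools all mice and has no column of a single sample, and what tumor or CST6 did to this population was therefore not analysed here. No value has a replicate error.

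Neutrophils arise in the marrow from proliferating progenitors and store the proteins they use against microbes in granules that are filled in a set order. Primary granules with myeloperoxidase and serine proteases are made early, and secondary granules with lactoferrin and lipocalin follow. Gelatinase-rich granules are made late, shortly before the cell leaves the marrow. The transcription factor C/EBP epsilon, encoded by Cebpe, is known to be needed for the secondary granule stage in mice.

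Of the 15 genes listed for Mature Neutrophils I, 5 were grouped as granule protein genes. Another 3, Ly6g, Cd177 and Ifitm6, were grouped as genes of the cell surface. All 5 of the markers given for granule-rich neutrophils, Ltf, Ly6g, Lcn2, Cd177 and Anxa1, were listed. Those markers were taken from this same list, so their presence is no independent check of the name. Of 12 genes of secondary granules and their program, 6 were listed here, namely Ltf, Camp, Ngp, Lcn2, Pglyrp1 and Cd177. Immature Neutrophils I listed 5 of the same 12 (Camp, Ngp, Chil3, Fcnb and Cebpe), Immature Neutrophils II 4, Immature Neutrophils III 2 and Mature Neutrophils II 1, so such genes were not particular to Mature Neutrophils I. None of the 9 genes of late neutrophils was listed for it, although 5 of them (Mmp8, Mmp9, Retnlg, Cxcr2 and Mxd1) were listed for Mature Neutrophils II. None of the 6 cell cycle genes was listed either, and none of the 5 primary granule genes. The same held for the lists of monocytes, macrophages, B cells, T and NK cells, dendritic cells, stem and progenitor cells, basophils and eosinophils, erythroid cells and plasma cells, of which 0 genes stood in this population's list. No erythroid or plasma cell gene was listed for any of the 17 populations, and only 1 of the 7 macrophage genes was. No primary granule gene was listed for any of the 5 neutrophil populations. These absences therefore say little about Mature Neutrophils I. A gene that is not listed was not kept among the 15 genes, and its level in Mature Neutrophils I is unknown. Whether the population is more mature than the populations named immature cannot be read from late markers in this list.

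The table gives each gene an area under the receiver operating characteristic curve (AUC), where 0.5 means no separation of the population from all other cells and 1 a full one. It also gives a log2 fold change against all other cells and the percentage of cells above 0 in the population and among all other cells. The 15 genes had AUC values from 0.814 to 0.932, a median log2 fold change of 1.71 and a range of 1.26 to 2.19. The median over all 293 entries was 2.06. These genes were chosen by the authors for separating the population, so their values describe it and were not tested. Its list ended at Plbd1 with an AUC of 0.814, below which no value is known. The lowest AUC of the table was 0.801, and the 6 populations with fewer than 20 genes ended between 0.801 and 0.821.

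**Figure D1:**
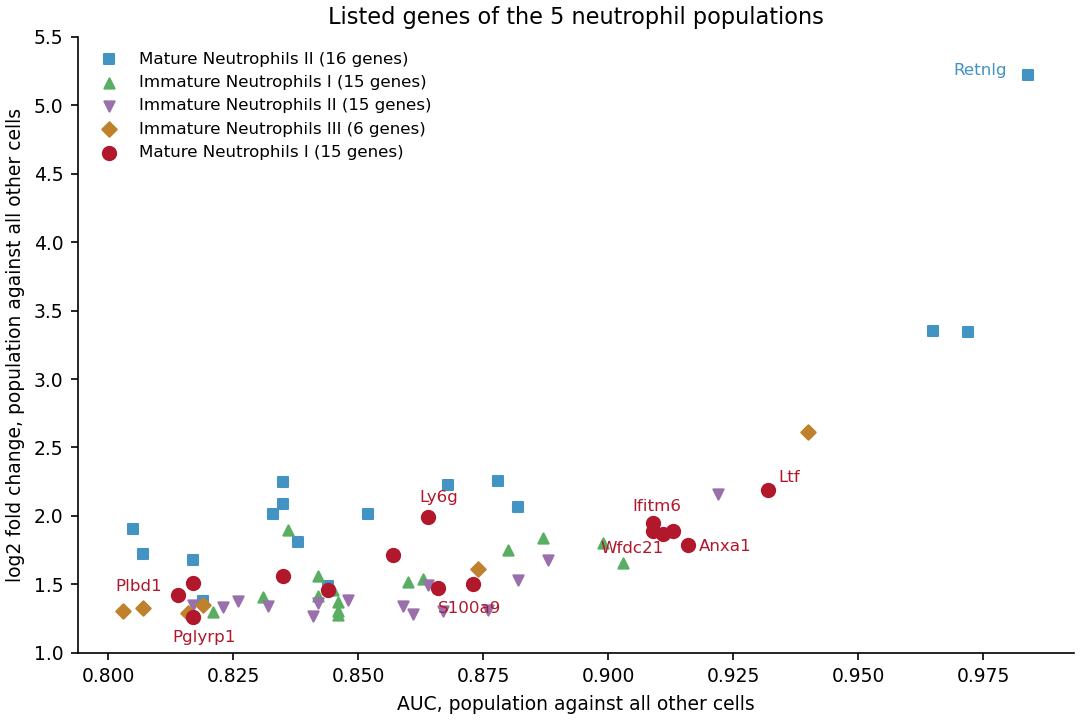
AUC on the x axis and log2 fold change on the y axis for each listed gene of the 5 neutrophil populations, each population against all other cells over the pooled mice. The 15 genes of Mature Neutrophils I lie between log2 fold changes of 1.26 (Pglyrp1) and 2.19 (Ltf), while Retnlg of Mature Neutrophils II stands at 5.22.

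Granule protein genes included the strongest marker. Ltf, which encodes the iron-binding protein lactoferrin, ranked first by both AUC (0.932) and log2 fold change (2.19) in the authors' deposited table, and had a value in 100% of the population and in 75.2% of all other cells. Lcn2 encodes lipocalin 2, which captures bacterial siderophores and so withholds iron from microbes. It stood at a log2 fold change of 1.89 with an AUC of 0.913, and at 100% inside against 73.7% outside. Ngp, the neutrophilic granule protein related to the cathelicidins, had the same log2 fold change to 2 decimals, 1.89, with an AUC of 0.909. Camp, the gene of the antimicrobial cathelicidin, followed at 1.71 with an AUC of 0.857. Pglyrp1, which encodes a secreted peptidoglycan recognition protein, closed this group at 1.26 with an AUC of 0.817. This was the lowest log2 fold change of all 293 entries. The 5 genes were near ubiquitous in the population, with values in 99.9% to 100% of its cells. They were also common elsewhere, with values in 73.7% to 83.2% of all other cells. All 5 of these shares lay above the median over all 293 entries, 67.5%. They were not particular within this list, whose 15 genes had a median of 78.5%. The medians were 79.0% for Immature Neutrophils II, 74.7% for Immature Neutrophils I, 72.15% for Immature Neutrophils III and 63.35% for Mature Neutrophils II.

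Among the genes of the cell surface, Ly6g, the GPI-anchored antigen by which mouse neutrophils are commonly recognised, had values in 97.0% of the population and in 62.3% of all other cells. This gap of 34.7 percentage points was the widest of the 15 genes. Its log2 fold change of 1.99 was second to Ltf, while its AUC of 0.864 ranked 9 of 15. Cd177, another GPI-anchored glycoprotein of neutrophils, stood at 1.46 with 99.5% inside and 76.3% outside. Ifitm6, of the interferon-induced transmembrane family, stood at 1.94 with 99.6% and 78.5%. Ly6g and Ifitm6 belong to gene families with close relatives, and the sources used here do not give how reads shared between relatives were counted.

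The calprotectin genes showed the opposite pattern, a raised level with hardly any gap in shares. S100a8 and S100a9 encode the subunits of this cytosolic calcium- and zinc-binding complex, which is among the most abundant proteins of neutrophils. S100a8 had a log2 fold change of 1.51 and an AUC of 0.873, with values in 100% of the population and 91.2% of all other cells. S100a9 had 1.48 and 0.866, with values in 100% and 94.9%. Their gaps of 8.80 and 5.10 percentage points were the smallest of the list.

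The remaining genes had varied roles. Anxa1 encodes annexin A1, a calcium-dependent phospholipid-binding protein known to limit neutrophil recruitment. It ranked second by AUC (0.916) but only 7 of 15 by log2 fold change (1.79), and was above 0 in 100% of the population and in 80.7% of all other cells. Wfdc21, which encodes a small protein with a WAP four-disulfide core domain, had 1.87 and an AUC of 0.911, with values in 68.0% of all other cells, the lowest share after Ly6g. The last 3 were Syne1, the gene of the nuclear envelope protein nesprin-1, at 1.56, St3gal5, the gene of the sialyltransferase that makes the ganglioside GM3, at 1.51, and Plbd1, which encodes a phospholipase B-like protein, at 1.42. St3gal5 had a value in 92.8% of the population, the lowest share inside of all 15 genes.

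**Figure D2:**
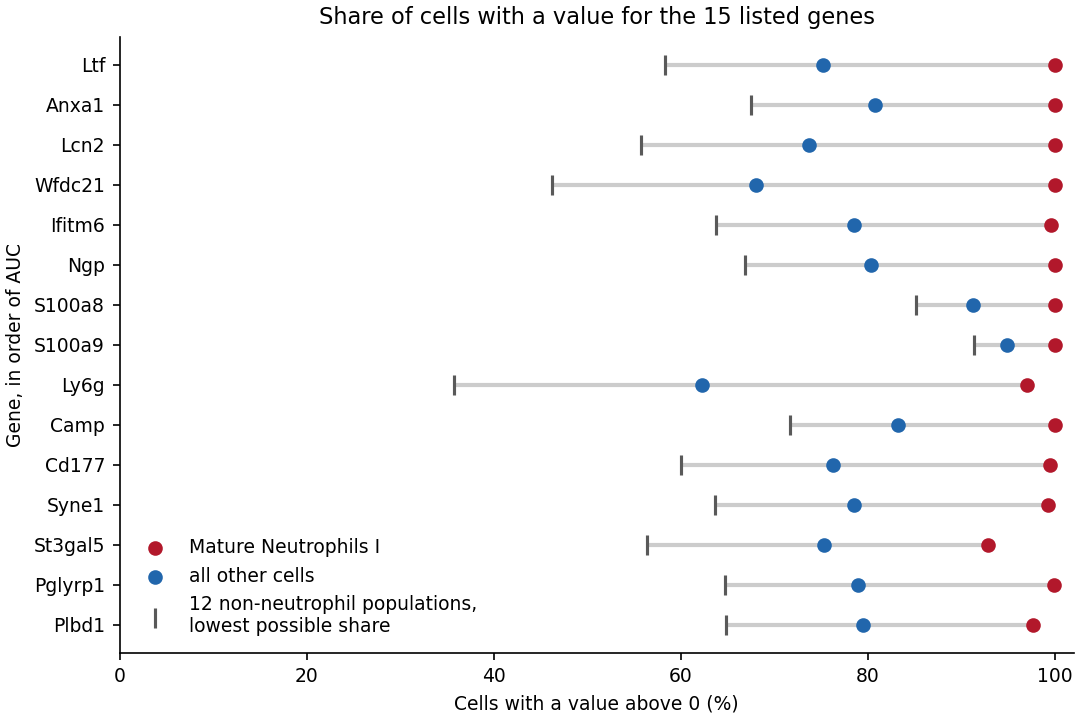
Share of cells with a value above 0, in percent, for the 15 genes in order of AUC. Red points are Mature Neutrophils I, blue points all other cells, and grey ticks the lowest share that the 12 non-neutrophil populations together could have. Ly6g shows the widest gap between red and blue (97.0% and 62.3%) and S100a9 the narrowest (100% and 94.9%).

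The size of the population followed from the table itself. A gene listed for several populations has only 1 share over all cells, so its inside and outside shares in each entry limit how large those populations can be. With 50 such genes, shares rounded to 3 decimals and the assumption that the 17 populations held all cells, linear programming gave Mature Neutrophils I between 12.96% and 14.53% of all cells. Mature Neutrophils II held 12.3% to 14.6%, and the difference between the mature populations lay between -0.139 and 0.676 percentage points, so that neither was shown to be larger. Mature Neutrophils I exceeded Immature Neutrophils I by 0.851 to 1.61 points, Macrophages by 1.78 to 3.29 points and Immature Neutrophils II and III by 9.73 to 10.9 and 10.4 to 11.7 points. The 5 neutrophil populations together held 42.9% to 49.0% of the cells. These bounds cover rounding only. They say nothing of the spread between mice or of the 3 groups.

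**Figure D3:**
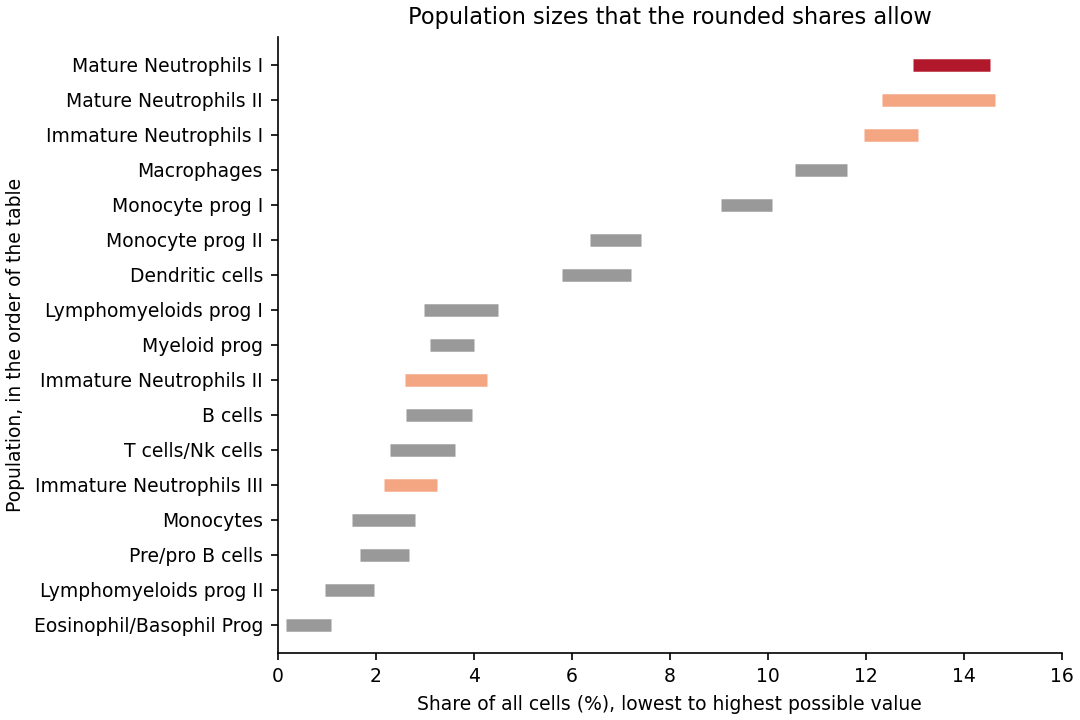
Lowest to highest share of all cells, in percent, that the rounded shares allow for each of the 17 populations, in the order of the table; Mature Neutrophils I is dark red and the other neutrophil populations are light red. Mature Neutrophils I spans 12.96% to 14.53% and overlaps with Mature Neutrophils II at 12.3% to 14.6%.

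With the size known, each gene's fold change could be set against the mean of all cells in place of all other cells, which differ from population to population. This step takes the fold changes as ratios of means on the linear scale, including any constant added to both means, as Seurat computes them by default. On that scale, Ltf in Mature Neutrophils I stood at 3.01 to 3.12 times the mean of all cells, Ly6g at 2.78 to 2.87 times and Lcn2 at 2.66 to 2.75 times. The population, with at most 14.53% of the cells, held 40.4% to 43.7% of the summed level of Ltf. It held 37.2% to 40.4% of that of Ly6g. For Pglyrp1, the lowest of the 15 genes, it held 26.3% to 29.0%. On this scale, most of the summed level of each of the 15 genes lay in other populations. Any constant added to both means lowers the share computed for the population. Shares of the level without such a constant could be higher and are not known.

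Of the 15 genes, 9 were listed for this population alone, namely Ltf, Anxa1, Lcn2, Wfdc21, Ly6g, Cd177, Syne1, St3gal5 and Plbd1. Among the 234 different genes of all populations, only 50 were listed for several populations. Being listed for a single population was therefore common and not particular to these 9 genes. The other 6 of the 15 genes were shared with neutrophil populations and with no other kind. Immature Neutrophils II shared 4 genes, Camp, Ngp, S100a8 and S100a9, which is 26.7% of each list. Immature Neutrophils I shared Camp and Ngp, Mature Neutrophils II shared Ifitm6 and Pglyrp1, and Immature Neutrophils III shared Camp. Among the genes not shared with Mature Neutrophils I, those of highest log2 fold change were Retnlg, Mmp8 and Mmp9 in Mature Neutrophils II, Fcnb and the histone genes H3c3 and H4c4 in Immature Neutrophils I, the mitotic genes Cenpf, Hmmr and Cenpe in Immature Neutrophils II, and Fcnb, Cdc25a and Cd63 in Immature Neutrophils III. These lists overlapped too, with Fcnb in Immature Neutrophils I and III and Chil3 and Cebpe in Immature Neutrophils I and II.

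The shared genes fell into 2 directions once all populations were set against the same mean. Ngp stood at 2.66 to 2.75 times the mean of all cells in Mature Neutrophils I, against 2.35 to 2.39 in Immature Neutrophils I and 2.39 to 2.45 in Immature Neutrophils II. Ifitm6 stood at 2.72 to 2.81 times, against 2.10 to 2.17 in Mature Neutrophils II. Both were thus higher in Mature Neutrophils I than in each other population that listed them, by 1.09 to 1.17 times for Ngp and by 1.26 to 1.34 times for Ifitm6. Camp went the other way. It stood at 2.46 to 2.53 times in Mature Neutrophils I, below the 2.67 to 2.73 of Immature Neutrophils I, the 2.86 to 2.93 of Immature Neutrophils III and the 2.92 to 3.02 of Immature Neutrophils II. Pglyrp1 was lower as well, at 1.99 to 2.03 times against 2.22 to 2.29 in Mature Neutrophils II. For S100a8 the values were 2.24 to 2.29 times in Mature Neutrophils I and 2.32 to 2.38 in Immature Neutrophils II, and for S100a9 they were 2.21 to 2.26 and 2.29 to 2.35. Any constant added to the means draws all these levels and their ratios towards 1. Their sizes without such a constant are not known.

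For 3 of these genes the order between Mature Neutrophils I and another population differed from that of the deposited fold changes. Camp had a log2 fold change of 1.71 in Mature Neutrophils I, above 1.68 in Immature Neutrophils II and 1.61 in Immature Neutrophils III, yet its level was the lowest of the 4 populations that listed it. S100a8, at 1.51 against 1.30, and S100a9, at 1.48 against 1.28, had higher fold changes in Mature Neutrophils I and lower levels. The ratio of levels to Immature Neutrophils II was 0.942 to 0.987 for S100a8 and 0.942 to 0.985 for S100a9. These small differences were not recomputed with the wider size bounds given below, so their order there is not known. The deposited fold change sets each population against a different group, all cells but its own, whereas the level sets all of them against 1 mean. The AUC recomputed against all cells gave the same directions as the levels in all 9 pairs. It used the same size bounds as the levels and is no independent check of them. The deposited AUC was higher in Mature Neutrophils I for S100a8 (0.873 against 0.867) and S100a9 (0.866 against 0.861). For Camp the recomputed AUC was 0.805 to 0.811 in Mature Neutrophils I and 0.871 to 0.878 in Immature Neutrophils II. These orders rest on 1 pooled table, and the spread between mice is not known.

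**Figure D4:**
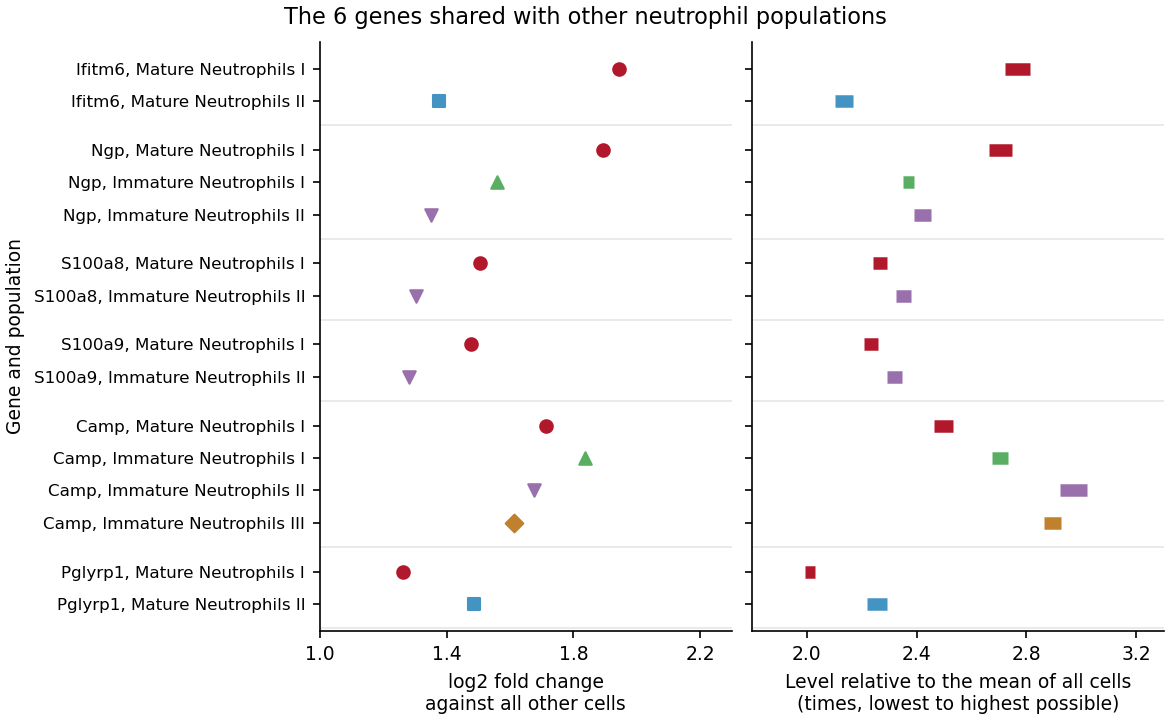
The 6 genes that Mature Neutrophils I (red) shares with other neutrophil populations. The left panel gives the deposited log2 fold change against all other cells and the right panel the level relative to the mean of all cells, in times, with bars from the lowest to the highest possible value. Camp is at 1.71 in Mature Neutrophils I and 1.68 in Immature Neutrophils II on the left, but at 2.46 to 2.53 and 2.92 to 3.02 times on the right.

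Cells outside the neutrophils also had values for these genes. Even if every cell of all 5 neutrophil populations had a value for Ltf, at least 58.3% of the cells of the 12 other populations must have had one too. The same lower limit was 35.8% for Ly6g, the lowest of the 15 genes, 46.2% for Wfdc21, 71.7% for Camp and 91.3% for S100a9. Amounts were less evenly spread than these shares for Camp. The 4 populations that listed Camp held 30.3% to 34.5% of the cells. On the scale that includes any added constant, they held 79.7% to 92.5% of its summed level. Of the remaining cells, 78.0% to 79.1% still had a value, but their mean was 0.107 to 0.310 times that of all cells. Such wide shares were not limited to neutrophil genes, since Mki67, a gene of dividing cells, had values in 85.3% of cells outside Immature Neutrophils I, while Cd3e of T cells had values in 20.5% of cells outside T and NK cells. The sources used here do not give whether UMI counts or batch-integrated values underlie the shares and the fold changes. The part of free RNA in the droplets was not tested.

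All 15 genes matched a protein-coding gene of RefSeq on GRCm38.p6, the assembly also called mm10, on 9 chromosomes. Chromosome 9 carried Camp from 109847377 to 109849456, Ngp from 110419808 to 110423012 and Ltf from 111019292 to 111042766. Camp and Ngp were separated by 570.4 kb and Ngp and Ltf by 596.3 kb. S100a8 (90669071 to 90670034) and S100a9 (90692630 to 90695721) were neighbours on chromosome 3, only 22.6 kb apart. Ly6g lies on chromosome 15 from 75155261 to 75159128, Lcn2 on chromosome 2 from 32384637 to 32387739 and Anxa1 on chromosome 19 from 20373434 to 20390671.

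Promoters of the genes were searched for the letters TTGCNNAA on both strands, a relaxed form of the site that C/EBP factors are known to bind. The window ran from 250 bases before to 50 after the RefSeq gene start, and 14 of the 15 genes had one, the exception being Wfdc21. The letters were found for 6 of the 14 genes (42.9%), namely Ltf, Lcn2, Ngp, Ly6g, S100a9 and Anxa1, against 12.2% of the 27025 genes of the reference table. In the window from 200 bases before the start they were found for 3 of the 14 (Ngp, Ltf and Anxa1; 21.4%) against 9.98%. In the whole window, the share among the genes not shared of the 4 other neutrophil populations was 21.6% of 37, to be set beside the 42.9%. For the shorter window their share was not computed. Cebpe itself was not listed for Mature Neutrophils I but for Immature Neutrophils I and II, at log2 fold changes of 1.42 and 1.35. A match of letters is a description of the sequence and does not show that a factor binds there. The 250 bases before the start of the 6 genes are shown because they hold these matches, from RefSeq on GRCm38.p6, 5′ to 3′ on the strand of the gene, with the matching letters in capitals. They are chr9:111019042-111019291 on the plus strand for Ltf, chr2:32387740-32387989 on the minus strand for Lcn2, chr9:110419558-110419807 on the plus strand for Ngp, chr15:75155011-75155260 on the plus strand for Ly6g, chr3:90695722-90695971 on the minus strand for S100a9 and chr19:20390672-20390921 on the minus strand for Anxa1.
Ltf: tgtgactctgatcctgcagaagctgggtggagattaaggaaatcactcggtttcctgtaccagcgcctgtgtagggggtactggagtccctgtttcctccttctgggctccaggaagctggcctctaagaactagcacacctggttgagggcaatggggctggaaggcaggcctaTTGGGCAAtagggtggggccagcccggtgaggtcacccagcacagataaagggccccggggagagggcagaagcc
Lcn2: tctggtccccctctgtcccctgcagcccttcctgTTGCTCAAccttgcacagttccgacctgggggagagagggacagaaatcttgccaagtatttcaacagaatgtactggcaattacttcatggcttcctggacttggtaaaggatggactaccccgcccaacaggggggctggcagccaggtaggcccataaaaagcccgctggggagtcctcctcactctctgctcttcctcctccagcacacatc
Ngp: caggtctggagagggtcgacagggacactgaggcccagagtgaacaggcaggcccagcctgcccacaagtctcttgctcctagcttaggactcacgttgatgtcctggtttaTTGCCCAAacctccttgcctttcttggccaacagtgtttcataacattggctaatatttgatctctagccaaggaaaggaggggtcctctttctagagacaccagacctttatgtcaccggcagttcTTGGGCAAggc
Ly6g: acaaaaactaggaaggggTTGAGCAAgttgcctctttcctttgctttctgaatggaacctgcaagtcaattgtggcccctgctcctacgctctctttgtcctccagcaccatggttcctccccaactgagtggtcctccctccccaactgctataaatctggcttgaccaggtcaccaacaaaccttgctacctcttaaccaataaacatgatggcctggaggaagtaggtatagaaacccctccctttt
S100a9: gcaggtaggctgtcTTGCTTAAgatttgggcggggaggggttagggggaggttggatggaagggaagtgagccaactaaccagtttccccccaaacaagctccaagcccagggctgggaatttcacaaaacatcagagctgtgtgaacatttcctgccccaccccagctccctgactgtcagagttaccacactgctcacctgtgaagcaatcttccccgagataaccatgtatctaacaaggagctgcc
Anxa1: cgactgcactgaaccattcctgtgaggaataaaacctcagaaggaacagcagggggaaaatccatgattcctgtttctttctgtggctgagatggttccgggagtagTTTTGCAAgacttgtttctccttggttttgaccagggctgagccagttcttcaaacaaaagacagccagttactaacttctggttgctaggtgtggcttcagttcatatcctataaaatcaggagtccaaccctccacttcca
The match in Ltf begins 75 bases before the gene start, and Ngp has a match 138 and another 11 bases before it. In Anxa1 it begins at 143 bases, in Lcn2 at 216, in Ly6g at 232 and in S100a9 at 236. The matches in Ltf and the nearer one in Ngp hold the same letters, TTGGGCAA. No match was found for Camp, Pglyrp1, Cd177, S100a8, Ifitm6, Syne1, St3gal5 or Plbd1, which says only that the letters are not in these windows.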

How the data were processed

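Libraries were made with the 10x Genomics 3′ v3.1 kit. Per the submitters' processing notes and the study's methods, Cell Ranger with mm10 and Seurat 4 were used, cells with few or many genes or a high mitochondrial share were removed, samples were integrated by reciprocal principal component analysis, and clusters were found by the Louvain method. The methods name the MAST test for markers, whereas the table has the columns of Seurat's ROC test. How doublets were handled was not given in these sources.

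The authors deposited AUC and power values as scores, shares of cells as fractions, average differences as natural log values and fold changes as log2 values. In all 293 entries the power was 2 × AUC − 1 and the natural log difference was the log2 fold change times the natural log of 2, within 1e-09. These are values of the authors' own comparison of a population with all other cells, used because the list of 15 genes comes from it. Depth per sample and cell numbers are unknown from the table. The labelled groups were not compared.

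Shares of cells were bounded with linear programming (scipy 1.17.1, Python 3.11.15, pandas 2.3.3) using a rounding half-width of 0.0005, and the method was tested on simulated data. Levels relative to the mean of all cells are R / (fR + 1 − f), with R the fold and f the share of cells, and summed shares are f times that level. Both were computed at the lowest and highest f. All 15 genes were named, and of the other neutrophil populations the shared genes and the 3 leading unshared ones; Cebpe, Mki67 and Cd3e were added after their values were seen. The members and lists were chosen with earlier results of these data known. No test was run.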

Additional observations from a re-analysis of the deposited data

How the results depend on the processing

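The order of the genes depended on the score. Of the first 5 genes by AUC, 3 remained among the first 5 by log2 fold change and 3 by the difference in shares, with Ltf in all of them. The count of genes shared with another neutrophil population was 6 over whole lists, 3 with the 10 genes of highest AUC of each population and 2 with the 10 of highest log2 fold change, where shorter lists can only share less. The promoter match fell from 6 to 3 genes in the shorter window, and was 6 with only the first window of each gene. The median log2 fold change stayed between 1.71 and 1.88 and the median share of other cells between 75.3% and 79.4% over their alternatives. The share of cells in Mature Neutrophils I was 12.4% to 15.8% without the constraint on the sum, 12.0% to 15.5% with a half-width of 0.001, and 12.9% to 14.7% with each shared gene left out in turn, an alternative chosen after seeing the data. Net charge of the proteins was not run, because no protein sequences were used here. No paired analysis was possible because the table has no values per sample, and no mouse could be left out. The table gives no cell numbers, depth or spread between mice, which limits every value.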

Other observations

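The populations stood in the table almost in the order of their computed sizes, starting with Mature Neutrophils I. Between 16 neighbouring pairs the midpoint of the bounds rose only once, between Monocytes (1.52% to 2.81% of the cells) and Pre/pro B cells (1.67% to 2.69%), whose bounds overlap. The order was not used in the computation.

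Among other populations, the letters TTGCNNAA were found in the promoter windows of 5 of 14 matched genes of Mature Neutrophils II (35.7%), 5 of 13 of Dendritic cells (38.5%) and 0 of 13 of B cells. Over the 172 matched genes listed only for populations other than Mature Neutrophils I the share was 14.0%. These shares were not tested.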
